A study of Mus musculus with 2 samples.

Results

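Later-intron distal peaks are DNase I hypersensitive peaks inside protein-coding genes, beyond the first intron and away from every annotated protein-coding start. They were chosen by position alone. A peak belonged to the class if both limb libraries held it, its centre lay over 1 kb from every protein-coding start, it lay in no exon, and it lay in an intron other than the first of the longest protein-coding transcript of a gene, with no such first intron of another gene at the same place. Of 115800 shared peaks on the 19 mouse autosomes, 23862 met this rule, which is 20.6% of all shared peaks and 26.8% of the 88919 distal ones (Wilson 95% interval 26.5 to 27.1%). The other distal peaks comprised 45415 intergenic, 9849 first-intron and 6412 exonic peaks, and 3381 in other genic positions.

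The peaks came from DNase-seq of whole limb tissue of healthy mouse embryos at 11.5 days, of strain B6NCrl, with tissue of both sexes pooled. DNase-seq cuts accessible chromatin with the nuclease DNase I and sequences the cut ends. There was 1 group, with 2 biological replicate libraries, and no treatment, other stage or other tissue was compared. The labels give both replicates the same donor identifier with different biosamples, and name 2 instrument models for replicate 2 only. Replicate 1 held 170134 autosomal peaks and replicate 2 held 163248. Read depth is unknown, since the files used here give no read counts.

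Introns are removed from the transcript but are read by RNA polymerase, and they hold enhancers, silencers and binding sites of the insulator protein CTCF. The first intron of a gene adjoins the promoter and often holds elements tied to it, whereas later introns are farther away and can also hold elements that act on a neighbouring gene. A known case in the limb is intron 5 of Lmbr1, which contains the enhancer that drives Sonic hedgehog (Shh) in the posterior limb bud.

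The sequences of 14 later-intron peaks show what the class contains, each read from the plus strand of the RefSeq GRCm38.p6 (mm10) genome. The first 3 are the peaks in intron 5 of Lmbr1, shown because this intron carries the limb enhancer named above. Capitals mark the E-box CAGATG, a word bound by basic helix-loop-helix factors, on either strand.
Lmbr1 (chr5:29293316-29293465, +): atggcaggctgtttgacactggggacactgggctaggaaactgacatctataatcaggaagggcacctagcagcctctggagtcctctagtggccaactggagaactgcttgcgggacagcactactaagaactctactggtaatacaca
Lmbr1 (chr5:29314676-29314825, +): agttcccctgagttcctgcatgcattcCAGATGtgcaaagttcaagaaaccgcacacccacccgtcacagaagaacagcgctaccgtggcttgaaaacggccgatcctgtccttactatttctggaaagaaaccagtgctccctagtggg
Lmbr1 (chr5:29315216-29315365, +): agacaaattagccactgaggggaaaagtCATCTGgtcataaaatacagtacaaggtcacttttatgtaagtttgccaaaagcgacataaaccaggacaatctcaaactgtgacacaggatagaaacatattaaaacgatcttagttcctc

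The next 5 are the later-intron peaks with the strongest signal in both libraries. Capitals mark CAGATG, the TEAD word GGAATGT, the CRE word TGACGTCA, the SP/KLF word GGGGCGG and the MEIS word TGACAG on either strand. The Clec11a peak held none of the 29 words in its central 150 bp, the part searched.
Chd9 (chr8:90862096-90862285, +): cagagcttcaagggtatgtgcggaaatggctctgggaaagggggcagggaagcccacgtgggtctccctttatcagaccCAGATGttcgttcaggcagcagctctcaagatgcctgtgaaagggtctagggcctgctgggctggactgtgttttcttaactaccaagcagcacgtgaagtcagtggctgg
Clec11a (chr7:44305076-44305285, +): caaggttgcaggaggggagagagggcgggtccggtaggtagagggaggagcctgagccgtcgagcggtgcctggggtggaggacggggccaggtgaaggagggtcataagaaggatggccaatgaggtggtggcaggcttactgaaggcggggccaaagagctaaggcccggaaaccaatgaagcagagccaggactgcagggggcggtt
Elf2 (chr3:51276156-51276305, +): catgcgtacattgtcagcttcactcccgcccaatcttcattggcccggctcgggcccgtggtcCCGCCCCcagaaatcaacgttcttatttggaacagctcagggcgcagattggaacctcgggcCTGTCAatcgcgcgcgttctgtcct
Atoh8 (chr6:72216776-72216925, +): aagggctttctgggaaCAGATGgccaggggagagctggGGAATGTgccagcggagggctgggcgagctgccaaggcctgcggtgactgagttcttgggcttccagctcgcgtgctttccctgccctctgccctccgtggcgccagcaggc
Itpkb (chr1:180387536-180387705, +): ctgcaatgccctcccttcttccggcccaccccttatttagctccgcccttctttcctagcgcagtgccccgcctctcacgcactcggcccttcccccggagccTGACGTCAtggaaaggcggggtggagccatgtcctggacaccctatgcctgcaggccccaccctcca

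The last 6 are the strongest peaks that hold each of the 6 words whose share in later-intron peaks stood highest over the flanking sequence. Capitals mark that word alone, on either strand.
REST word in Crhr2 (chr6:55108476-55108625, +): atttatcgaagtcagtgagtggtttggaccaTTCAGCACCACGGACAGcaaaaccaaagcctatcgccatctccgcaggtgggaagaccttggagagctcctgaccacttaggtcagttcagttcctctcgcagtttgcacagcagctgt
RFX word in Col2a1 (chr15:97990256-97990405, +): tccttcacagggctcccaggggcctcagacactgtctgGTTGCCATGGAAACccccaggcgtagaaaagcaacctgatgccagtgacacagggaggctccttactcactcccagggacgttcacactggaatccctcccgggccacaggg
CTCF word in Prkd2 (chr7:16869576-16869725, +): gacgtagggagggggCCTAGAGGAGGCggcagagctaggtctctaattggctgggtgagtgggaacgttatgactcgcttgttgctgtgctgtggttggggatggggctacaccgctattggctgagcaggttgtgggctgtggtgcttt
NFI word in Col26a1 (chr5:136790996-136791145, +): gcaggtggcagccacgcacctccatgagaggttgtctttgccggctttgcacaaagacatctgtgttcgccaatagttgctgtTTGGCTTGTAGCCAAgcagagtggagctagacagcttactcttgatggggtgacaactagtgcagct
GRHL word in Src (chr2:157464936-157465085, +): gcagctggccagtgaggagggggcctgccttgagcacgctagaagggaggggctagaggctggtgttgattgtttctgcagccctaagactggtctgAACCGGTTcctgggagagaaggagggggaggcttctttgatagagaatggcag
MEF2 word in Bbc3 (chr7:16313996-16314165, +): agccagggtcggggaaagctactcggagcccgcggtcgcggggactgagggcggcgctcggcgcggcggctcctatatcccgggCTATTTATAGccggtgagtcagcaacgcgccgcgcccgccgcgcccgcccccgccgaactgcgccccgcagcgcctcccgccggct

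Later introns held fewer peaks per length than first introns and more than intergenic sequence. Over 582 Mb of usable sequence, meaning introns over 1 kb from a start and outside exons, later introns carried 41.0 shared peaks per Mb, or 1 peak per 24.4 kb. First introns carried 49.8 per Mb and intergenic sequence 33.2 per Mb. The ratio of later to first introns was 0.823 (95% interval 0.804 to 0.843), and it lay below 1 on 19 of 19 chromosomes. In the libraries taken alone, the later-intron density was 60.4 per Mb in replicate 1 and 57.7 per Mb in replicate 2, against 76.9 and 73.7 per Mb in first introns. Both libraries therefore had the same order, with ratios of 0.785 and 0.783. The ratio of later introns to intergenic sequence was 1.24 (1.22 to 1.26), or 1.22 and 1.19 in the libraries alone, and it lay above 1 on 18 of 19 chromosomes. The exception was chromosome 13, at 0.983. The intervals cover only the error of counting regions, which are not independent of their neighbours.

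The shortfall against first introns was widest close to starts. Between 1 and 2 kb from the nearest protein-coding start, first introns held 134 shared peaks per Mb and later introns 62.2, a ratio of 0.463. Between 2 and 5 kb the ratio was 0.840, and in the 5 bins from 5 to 500 kb it ranged from 0.935 to 1.12. Over all sequence at least 5 kb from a start, later introns held 40.2 peaks per Mb and first introns 40.7. That ratio of 0.988 had an interval of 0.961 to 1.02, so no difference from 1 was detectable there, although the libraries alone gave 0.972 and 0.965. The limit of 5 kb was chosen after the values by distance had been seen.

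The comparison with intergenic sequence had the opposite dependence on distance. Later introns were sparser than intergenic sequence near starts, with ratios of 0.741 at 1 to 2 kb, 0.868 at 2 to 5 kb, 0.866 at 5 to 10 kb, 0.907 at 10 to 20 kb and 0.987 at 20 to 50 kb. They were denser farther away, at 1.15 from 50 to 100 kb, 1.21 from 100 to 500 kb and 1.45 beyond 500 kb. Within 50 kb of a start the pooled ratio was 0.918, and beyond it 1.46. The pooled value beyond 50 kb is not matched for distance and lies above each of its bins. Beyond 500 kb lay 235 Mb of intergenic sequence but only 10.7 Mb of later introns, with 170 later-intron peaks. Soft-masked repeats made up 28.6% of later-intron sequence and 38.5% of intergenic sequence. With masked sequence left out, the overall ratio fell to 1.06, the pooled ratio within 50 kb to 0.785 and that beyond 50 kb to 1.26. By bin, the ratio without masked sequence was 1.02 from 50 to 100 kb and 1.07 from 100 to 500 kb. It was 1.27 beyond 500 kb, from 160 later-intron peaks.

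**Figure D1:**
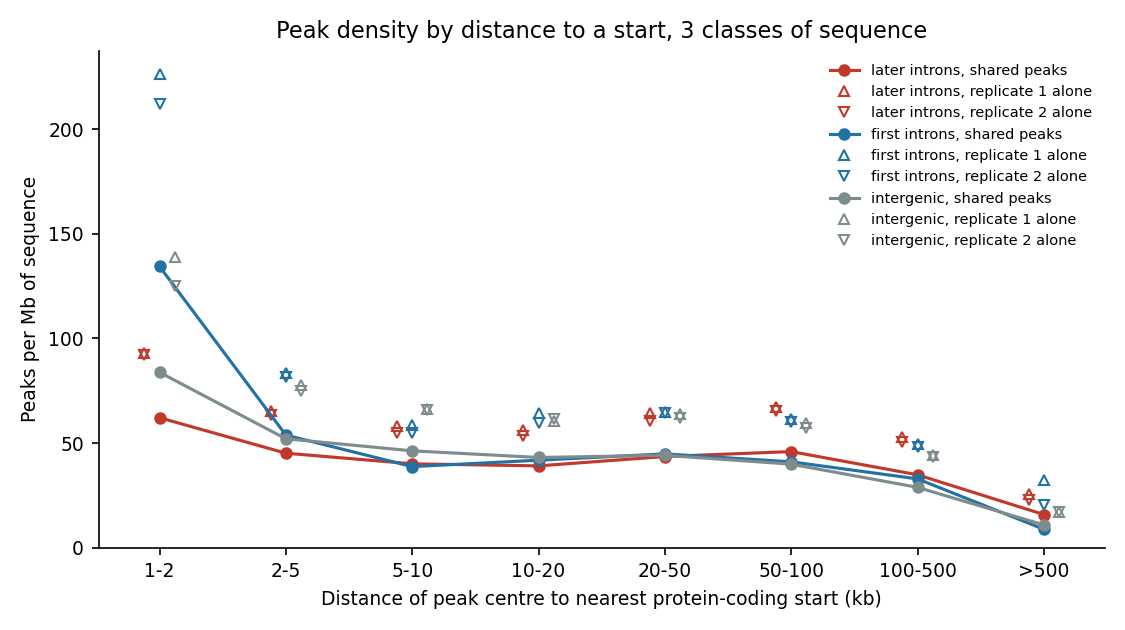
Shared peaks per Mb (vertical axis) by distance of the peak centre to the nearest protein-coding start in kb (horizontal axis), for later introns, first introns and intergenic sequence; lines join shared peaks, and open triangles are each library alone. First introns stand at 134 per Mb at 1 to 2 kb against 62.2 in later introns, and the 3 classes lie close together from 5 to 100 kb; the last first-intron point rests on 3 shared peaks.

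Within the class, density changed little with the place of the intron in the gene. Introns 2 and 3 held 42.4 and 42.1 peaks per Mb, introns 6 to 10 held 41.5, and introns 21 and beyond held 36.9. The last intron of a gene carried 42.3 per Mb against 41.0 in other later introns. Intron 2 alone held 5119 of the 24100 pairs of a peak and an intron, over 121 Mb of usable sequence. Pairs outnumber peaks because 149 peaks lay in a later intron of more than 1 gene.

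Density differed more with intron length than with intron number. Density stayed between 39.4 and 44.6 per Mb for introns of up to 100 kb, was 38.6 per Mb at 100 to 200 kb, and dropped to 29.6 per Mb in introns over 200 kb. Peaks in the longest introns were also weaker. Their median signal percentile was 37.2, against 49.0 in introns under 2 kb, where the percentile is the mean rank of a peak among shared peaks over the 2 libraries and 100 is the strongest. Peaks within 200 bp of a splice site had a median percentile of 50.7, and those farther away had medians of 39.4 to 43.6. Density next to splice sites, at 41.4 per Mb, was near that of all later introns.

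**Figure D2:**
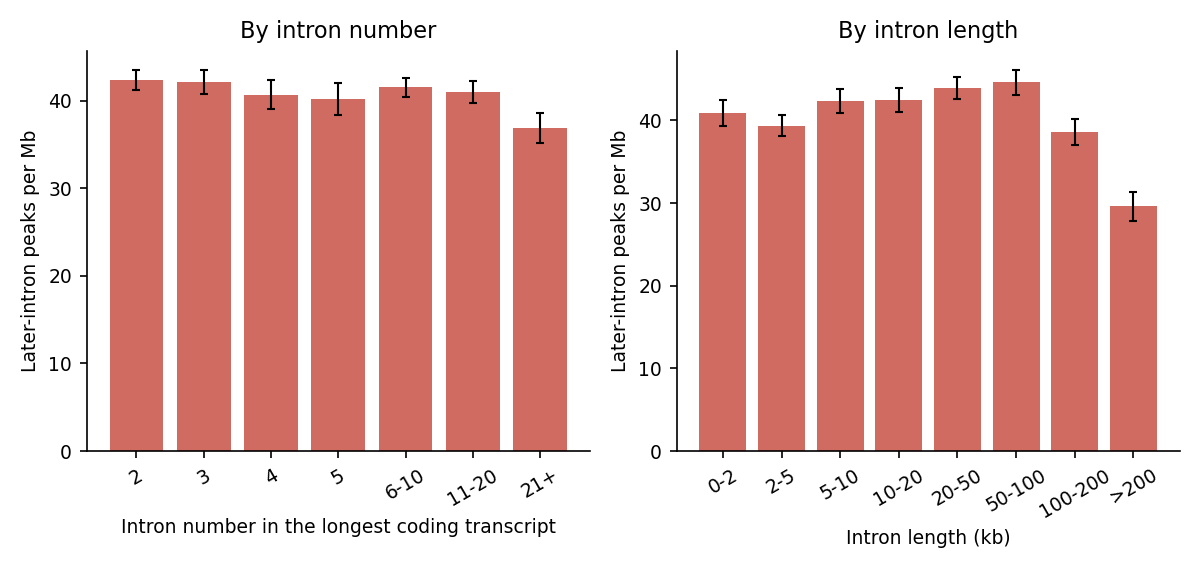
Later-intron shared peaks per Mb of usable sequence (vertical axes, from 0) by intron number in the longest coding transcript (left) and by intron length in kb (right); error bars are 95% intervals from counting error. Bars by number lie between 36.9 and 42.4 per Mb, and the bar for introns over 200 kb is the lowest at 29.6.

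Later introns with a peak were few and long. Of 145226 later introns with usable sequence, 13976 (9.62%) held at least 1 later-intron peak. Their median length was 6.73 kb, against 1.42 kb for all later introns. In 9847 of them the peak stood alone, while 731 introns with 5 or more peaks held 24.1% of all pairs. Neighbouring peaks of the same intron were 3.5 kb apart at the median, and 22.1% of pairs had another peak within 1 kb.

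Most later-intron peaks were far from any start. The median distance was 34.8 kb to the nearest protein-coding start, compared with 10.2 kb for first-intron and 57.6 kb for intergenic peaks. The nearest start lay over 50 kb away for 39.4% and over 100 kb away for 20.1% of them. It belonged to a gene other than the host for 5693 peaks (23.9%, Wilson interval 23.3 to 24.4%). The nearest start does not show which gene a region acts on. Alternative transcripts affect the class too, since 2620 peaks (10.98%) lay in a first intron of another coding transcript, and 1585 (6.64%) lay within 1 kb of a start that is not protein-coding. At the edge of the rule, 740 peaks lay 1 to 2 kb from a start, with a median signal percentile of 51.1, and 38 lay within 50 bp of the 1 kb limit. Those more than 50 kb away had a median percentile of 38.5.

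Signal in later-intron peaks was moderate and close to that of the other distal classes. The median deposited signal was 53 in replicate 1 (middle 50% of peaks from 40 to 70) and 43 in replicate 2 (32 to 59). First-intron peaks had medians of 51 and 43, intergenic peaks 53 and 43, and promoter peaks 77 and 76. This signal is the authors' own value with no stated scaling, so it was used only to describe and rank peaks within a library. In whole tissue, a peak open in fewer cells and a peak less open in each cell cannot be told apart.

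Later-intron and first-intron peaks were both less frequent among the strongest distal peaks. With distal shared peaks split by signal into 10 equal groups, later-intron peaks made up 26.5 to 28.4% of the lower 9 groups and 22.2% of the highest (21.3 to 23.0%). First-intron peaks made up 9.36% of the highest group against 11.1% of all distal peaks, and intergenic peaks 55.0% against 51.1%. The lowest group had similar shares of these 2 classes, at 9.88% and 54.9%, so their shift was not particular to strong peaks. In both libraries at once, 315 later-intron peaks (1.32%) ranked in the top 10% of all shared peaks, compared with 1.68% of first-intron, 2.18% of intergenic and 30% of promoter peaks. The rank order of later-intron peaks was similar between the libraries, with a Spearman rho of 0.882 across 23862 peaks, which share local sequence and are not replicates.

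Strong peaks of all 3 classes were nearly always found in the other library, and weak ones often were not. Of later-intron peaks called in replicate 1, 69.4% were found in replicate 2, and 73.0% the other way, against 69.9% and 73.2% of all autosomal peaks. With all peaks of a library split by signal into 4 equal groups, the share for later-intron peaks was 35.5% in the weakest group of replicate 1 and 98.7% in its strongest. For replicate 2 the same groups gave 38.3% and 98.9%. In replicate 1 the weakest and strongest groups gave 33.4% and 97.7% for first-intron peaks, and 35.9% and 98.1% for intergenic peaks. Intergenic peaks as a whole were found again at 69.1% and 71.1%. First-intron peaks were found again less often, at 66.4% in replicate 1 (Wilson interval 65.6 to 67.1%, against 68.9 to 69.9% for later introns) and 69.7% in replicate 2 (68.9 to 70.4%, against 72.6 to 73.5%).

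Hotspots around later-intron peaks resembled those of the other distal classes. Hotspots are the wider regions of enriched cutting that the authors deposited with a −log10 q value. Around later-intron peaks their median width was 289 bp in replicate 1 and 305 bp in replicate 2, close to the 295 and 320 bp around first-intron peaks and the 302 and 330 bp around intergenic peaks. Around promoter peaks it was 968 and 1193 bp. The value of 100, the highest in the files, was reached by 50.8% of later-intron peaks in replicate 1 and 45.5% in replicate 2. First-intron peaks gave 45.5% and 42.9%, and intergenic peaks 52.4% and 48.8%. By sequence, the central 150 bp had a median GC content of 49.3%, above the 42.4% of later-intron sequence as a whole, and 15.3% of peaks held no CpG dinucleotide. Intergenic peaks had the same median GC and a share of 15.3% without CpG, and first-intron peaks had 50.7% and 13.5%.

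The CTCF word was more frequent in later-intron peaks than in their flanks, in first-intron peaks and, by a small margin, in intergenic peaks. CTCF is a zinc finger protein that holds chromatin loops and insulates domains, and the word searched was CC, any 3 bases, AGG, any base, then GGC, on both strands. It occurred in the central 150 bp of 1905 later-intron peaks (7.98%) and in 0.534% of equal windows 500 bp to either side. The ratio was 14.9 (13.1 to 17.0), with more in peaks than in flanks on 19 of 19 chromosomes, and it was 11.9 in replicate 1 alone and 10.9 in replicate 2 alone. The share in later-intron peaks was 1.62 times that in first-intron peaks (1.47 to 1.78), again above 1 on 19 of 19 chromosomes, and 1.10 times that in intergenic peaks (1.04 to 1.16). At least 5 kb from a start, the ratio to first-intron peaks was 1.58 (1.40 to 1.78). A control word with no known factor, GAATAGA, stood at 1.10 (0.875 to 1.40) between later-intron and first-intron peaks, but at 1.42 (1.04 to 1.94) beyond 5 kb, where 48 first-intron peaks held it. Beyond 5 kb the intervals of the CTCF word and the control word overlap.

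The CTCF word was somewhat less frequent on the strand of the host gene than on the other strand. Among later-intron peaks with the word on 1 strand and in 1 host gene, 870 had it on the strand of the host and 1013 on the other. The share on the host strand was 46.2% (44.0 to 48.5%), an interval below an even split.

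Several other words were more frequent in later-intron peaks than in their flanks. Of the 29 words, 21 had an interval above 1, 2 had one below 1 and 6 had one that included 1, and the words may overlap each other. The longest words were rare. The word of REST, a repressor of neuronal genes, was found in 39 peaks and 1 flank window, and that of RFX, which binds X-boxes of ciliary and other genes, in 46 peaks and 4 flank windows. Their ratios of 78 and 23.0 rest on these few flank windows. The palindromic word of NFI factors followed at 6.67 (2.68 to 16.6) from 20 peaks, and the epithelial GRHL word AACCGGTT and the MEF2 word of muscle and other tissues stood at 2.94 and 2.82.

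Among common words, the E-boxes CAGCTG and CAGATG and the SP/KLF, TEAD, TFAP2 and posterior HOX words stood above their flanks. The SP/KLF word had a ratio of 2.22 (1.99 to 2.49) and the TFAP2 word one of 1.67 (1.55 to 1.80). CAGCTG was in 16.8% of later-intron peaks and 7.35% of flanks, a ratio of 2.28 (2.19 to 2.38). CAGATG was in 21.3% and 11.8%, a ratio of 1.80 (1.74 to 1.87), whereas the third E-box, CATATG, stood at 0.983 (0.909 to 1.06). The TEAD word GGAATGT, read by the partners of YAP, had a ratio of 1.75 (1.61 to 1.92). The posterior HOX word CCATAAA, of the factors that pattern the distal limb, stood at 1.63 (1.495 to 1.77), while the TAATTA word common to many homeodomain factors stood at 1.12 (1.05 to 1.198). The GLI word TGGGTGGTC, of the hedgehog pathway, was in only 48 peaks and had a ratio of 1.60 (1.10 to 2.34).

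The words with an interval below 1 against their flanks were GATA and the control. The GATA word AGATAAG stood at 0.368 (0.315 to 0.431) and was lower in peaks on 19 of 19 chromosomes. The control word GAATAGA stood at 0.620 (0.540 to 0.713) and was lower on 18 of 19. In first-intron and intergenic peaks the GATA word stood at 0.394 and 0.423, and the control word at 0.593 and 0.565. Word ratios were not adjusted for base composition, and its part in them was not tested, for words above or below their flanks.

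The words less frequent in later-intron than in first-intron peaks were those of SP/KLF, ETS and TFAP2. The SP/KLF word GGGGCGG, a frequent promoter element, was in 2.64% of later-intron peaks, 0.586 times the share in first-intron peaks (0.520 to 0.660). It remained lower at least 5 kb from a start, at 0.714 (0.607 to 0.839). The ETS word CCGGAAGT had a ratio of 0.566 (0.366 to 0.875), from 48 later-intron peaks, and the TFAP2 word GCCNNNGGC one of 0.809 (0.739 to 0.886). Beyond 5 kb, 7 of the 29 words had an interval below 1, the ETS and TFAP2 words among them. The others were the posterior HOX word at 0.814 (0.717 to 0.924), CAGCTG at 0.905 (0.853 to 0.961), the TEAD word at 0.867 (0.758 to 0.991) and the AP-1 word TGANTCA at 0.876 (0.773 to 0.993). Over all distal peaks, the intervals of these 4 words included 1. Over all distal peaks the intervals of 4 words lay above 1, namely CTCF, CAGATG at 1.09, MEIS at 1.09 and RUNX at 1.13. Beyond 5 kb those of CAGATG at 0.999 (0.947 to 1.05), MEIS at 1.08 (0.999 to 1.16) and RUNX at 1.13 (0.975 to 1.299) included 1, and only the CTCF word and the control word stayed above it.

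**Figure D3:**
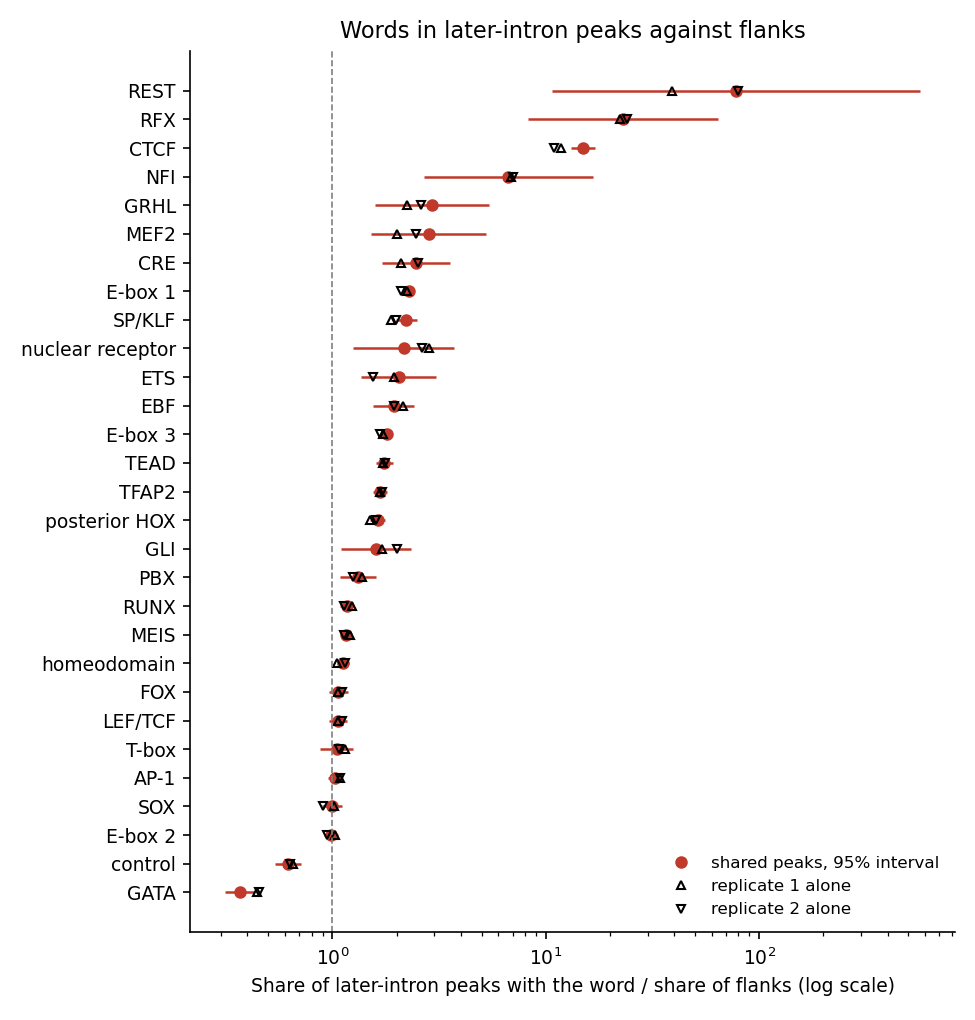
Ratio of the share of later-intron peaks holding a word to the share of flanking windows (horizontal log axis) for 29 words (vertical axis); filled points are shared peaks with 95% counting intervals and open triangles each library alone. E-box 1 is CAGCTG, E-box 2 is CATATG and E-box 3 is CAGATG; CTCF stands at 14.9 with a narrow interval, REST and RFX have wide ones, and the control at 0.620 and GATA at 0.368 lie below 1.

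Peaks with the CTCF word were stronger than the rest at the median, but both groups were seldom among the very strongest. Their median signal was 70 in replicate 1 and 56 in replicate 2, against 51 and 42 in later-intron peaks without the word. Their hotspot reached the value of 100 in 79.8% and 72.1% of cases, against 48.3% and 43.2%. In both libraries, 0.997% of the 1905 peaks with the word ranked in the top 10% of all shared peaks, compared with 1.35% of the others. No interval was taken for this difference. Peaks with the word had a shorter median distance to a start, at 21.3 kb against 36.2 kb.

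Later-intron peaks were split by signal into 5 equal groups, and of the 5 words followed across them the CTCF word climbed most. Its share was 3.23%, 4.27%, 5.83%, 10.6% and 16.0% from the weakest to the strongest group. From the second group on, the intervals of neighbouring groups did not overlap. The SP/KLF word went from 1.63% to 4.27%. CAGCTG stayed between 16.2 and 17.3% in all 5 groups, TAATTA went from 6.73% down to 3.90%, and the GATA word from 0.985% to 0.587%. Stronger peaks were also more GC-rich, with a median of 52.0% against 47.3% in the weakest group, nearer to a start, at 26.4 kb against 41.0 kb, and more often within 1 kb of a start that is not protein-coding, at 9.68% against 5.41%. Peaks with at least 50% soft-masked bases made up 7.35% of the weakest group and 1.05% of the strongest. The part of GC content, masking and nearby starts in these trends was not tested.

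**Figure D4:**
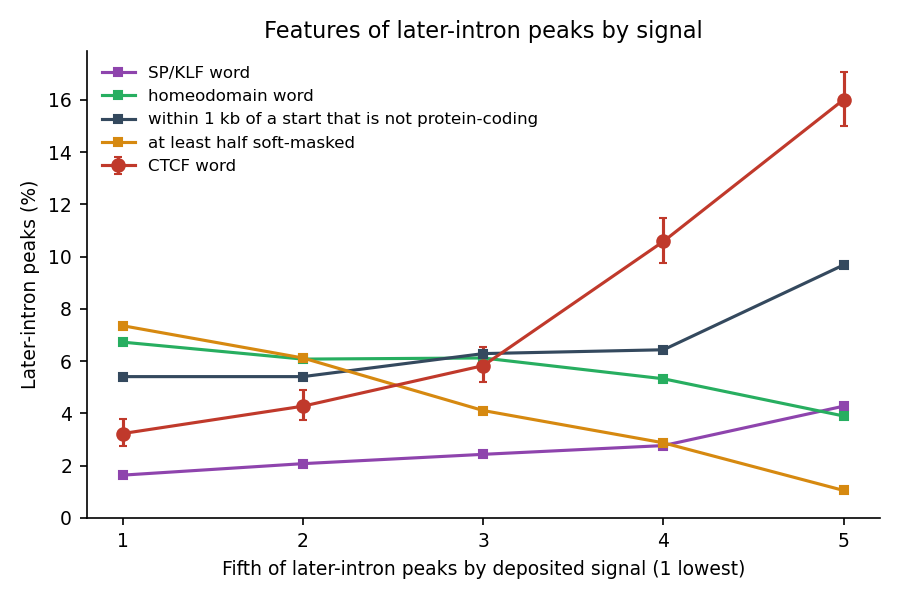
Percentage of later-intron peaks with each feature (vertical axis, from 0) in 5 equal groups by deposited signal rank, from weakest to strongest (horizontal axis); error bars on the CTCF line are Wilson 95% intervals. The CTCF line goes from 3.23% to 16.0%, while the homeodomain word and heavily soft-masked peaks decline.

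The 5 strongest later-intron peaks were near the top of each library. In the second intron of Chd9, a chromatin remodelling helicase, signal was 133 in replicate 1 and 129 in replicate 2 at chr8:90862096-90862285, 33.4 kb from the nearest start. Intron 3 of Clec11a, which encodes a secreted bone growth factor, held a peak of 128 and 134 at 1.72 kb from the start. The peak in intron 4 of Elf2, an ETS factor gene, had 128 and 132 and lay 1.14 kb from another start of Elf2. Values were 128 and 132 in intron 2 of Atoh8, a basic helix-loop-helix factor, and 132 and 128 in intron 2 of Itpkb, an inositol kinase. Of these 5, those of Clec11a and Elf2 lay within 2 kb of a start, and those of Chd9, Atoh8 and Itpkb lay 18.7 kb or more away. The next 5 ranks, in Msra, Tcf4, Insr, Prrg2 and Dnm1, had signal percentiles from 98.1 to 98.8.

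The example peaks for words lay in genes of varied function. The REST word example was in intron 3 of Crhr2, a receptor of the corticotropin-releasing hormone family, with signal 98 and 88. The RFX word stood in intron 18 of Col2a1, the collagen of cartilage, with 104 and 94. The CTCF word was in intron 17 of Prkd2, a protein kinase, with 116 and 106, 0.077 kb from a splice site. The NFI word in intron 3 of the collagen gene Col26a1 had 114 and 106, and the MEF2 word in intron 3 of the apoptosis gene Bbc3 had 99 and 94. The GRHL word example in intron 8 of the kinase gene Src was the strongest of the 6, with 124 and 125.

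Lmbr1 held 6 later-intron peaks, of which 3 lay in intron 5. The peaks at chr5:29314676-29314825 and chr5:29315216-29315365 had signal 61 and 57 in replicate 1 and 48 and 52 in replicate 2, near percentile 53 among shared peaks. Both carried CAGATG, as the capitals above show. The third, at chr5:29293316-29293465, was stronger, with 81 and 65, and lay 0.441 kb from a splice site. Peaks with the CTCF word lay in intron 4, with 81 and 49, and in intron 9, with 37 and 31. The 2 peaks in intron 9 were weak, with 30 and 21 in the first and 37 and 31 in the second. These 2 were also the only ones of Lmbr1 for which another gene, Rnf32, had the nearest start.

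Later-intron peaks were spread over many genes, with a long tail of rich ones. Of 16674 genes with usable later-intron sequence, 6592 (39.5%) held at least 1. The 549 genes with 10 or more (3.29%) held 40.1% of all pairs. Genes with more later-intron sequence held more, with a Spearman rho of 0.645 across 16674 genes, given as a description since genes share neighbours. Over all genes there were 4.11 peaks per 100 kb.

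The 10 genes with the most later-intron peaks were all long, with 386 to 1959 kb of later-intron sequence each. Erc2, a scaffold of the presynaptic active zone, had 69 (88 and 98 in the libraries alone), and Macrod2, an ADP-ribose hydrolase, had 66 (102 and 107). Zfhx3, a zinc finger homeobox factor, followed with 59 (104 and 101), and Tenm4, a transmembrane teneurin, with 58 (68 and 77). The order holds for shared peaks only. In each library alone Macrod2 and Zfhx3 had more than Erc2, and in replicate 1 Zfhx3 had the most of these 4. Dnm3 had 57, Bcas3 55, Gpc6 54, Nrxn3 52, Lrba 50 and Pard3b 48. Density differed more than number among these 10. Dnm3 held 14.8 peaks per 100 kb, Bcas3 12.2 and Tenm4 10.98, whereas Macrod2 held 3.37 and Nrxn3 3.52, below the 4.11 over all genes. Peaks of Dnm3 were also the strongest of the 10, with a median percentile of 65.5, and those of Nrxn3 the weakest, at 23.3.

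Many of these peaks lay nearest to the start of a neighbouring gene. In Erc2, 36 of the 69 were nearest to Wnt5a, the secreted ligand of limb outgrowth, at 29.4 to 312 kb. The libraries alone gave 45 and 50 such peaks. In Pard3b, a polarity gene, 28 of 48 were nearest to Nrp2, a semaphorin and VEGF co-receptor, and in Gpc6, a glypican, 30 of 54 were nearest to Dct, a melanin enzyme. In Macrod2, 27 were nearest to Flrt3, a transmembrane protein whose gene lies inside Macrod2, and in Lrba, 14 were nearest to Mab21l2. In Dnm3, 31 of 57 were nearest to the gene 4930558K02Rik. By contrast all 59 peaks of Zfhx3 and all 52 of Nrxn3 were nearest to a start of their own gene. So were 56 of 58 in Tenm4 and 53 of 55 in Bcas3. How much later-intron sequence of each host lies nearest to the start of another gene was not measured.

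The densest hosts included Lmx1b and Tbx5, which encode limb patterning factors. Among genes with at least 10 later-intron peaks, Pax6, the eye and brain factor, ranked highest with 14 peaks in 11.5 kb, or 122 per 100 kb. These were weak, with a median signal of 36 and 35. Bop1, a ribosome assembly gene, had 10 peaks (61.8 per 100 kb), of which 8 were nearest to Scx, the tendon factor scleraxis. Lmx1b, the factor of dorsal limb identity, had 29 peaks (39.4 per 100 kb), all in intron 2, with 43 and 42 in the libraries alone. Tbx5, the forelimb factor, had 14 (31.2 per 100 kb) over 6 introns. Bahcc1, Prkcz, Igdcc3, Zfp608, Ddc and Slc28a1 completed the 10, with 23.3 to 33.8 per 100 kb. In Prkcz none of the 11 peaks was nearest to its own start, and all 11 were nearest to Faap20. In Ddc, 11 of 17 were nearest to Fignl1.

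**Figure D5:**
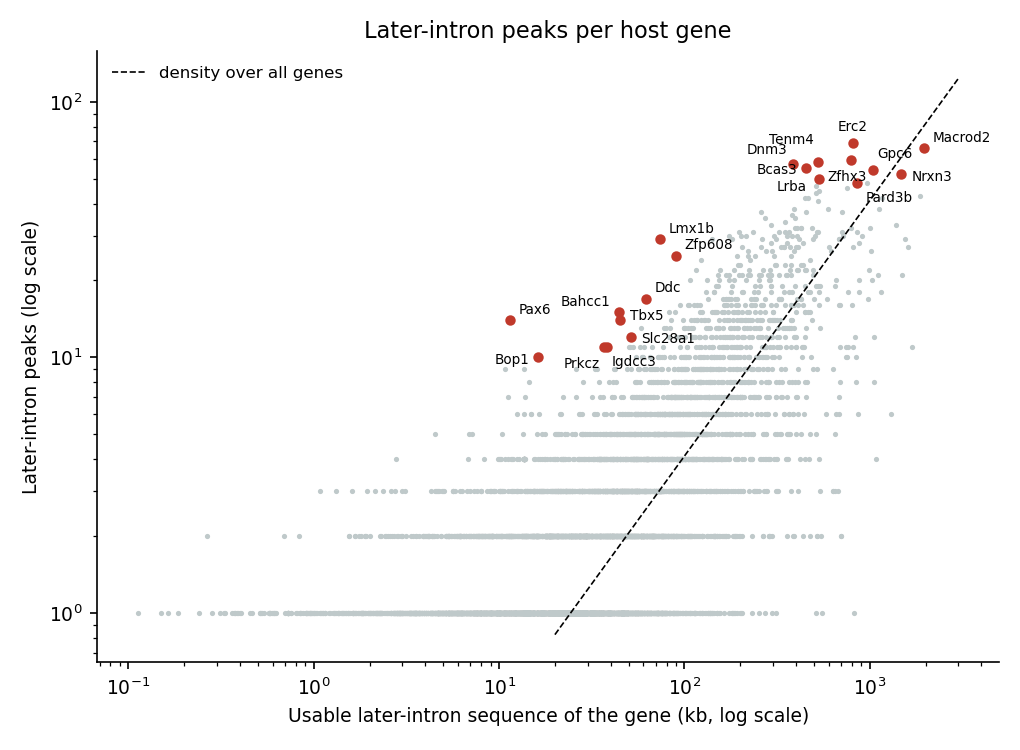
Number of later-intron shared peaks (vertical log axis) against usable later-intron sequence in kb (horizontal log axis) for each gene with at least 1; red points are the 10 genes with the most peaks and the 10 densest with at least 10, and the dashed line is the density over all genes, 4.11 per 100 kb. Pax6, Bop1 and Lmx1b lie far above the line, and Macrod2 and Nrxn3 lie below it.

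Some single introns held many peaks. Intron 3 of the gene model Gm37240 held 40, but it spans 1245 kb and its density was 3.67 per 100 kb. None of the 42 later-intron peaks of Gm37240 was nearest to its own start. Bcas3 intron 24 held 33 (15.7 per 100 kb), Slit3 intron 4 held 32, Rad51b intron 7 held 31 and Lmx1b intron 2 held 29 (41.5 per 100 kb). Rad51b is a recombination repair gene and Slit3 a secreted guidance cue. Each library alone found more in each of these introns, from 37 in Slit3 intron 4 to 61 in Gm37240 intron 3, both in replicate 2.

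At the other end, long genes could be almost empty. Among 98 genes with at least 500 kb of later-intron sequence, density ran from 0.122 per 100 kb in Sntg1, with 1 peak in 820 kb, to 10.98 in Tenm4, with a median of 2.29. Fstl5 and Skint5 also had 1 peak each, and Csmd3 had 4 in 1073 kb. The libraries alone gave more than the shared count for most of them, with 3 and 4 in Sntg1, 1 and 5 in Fstl5, 3 and 3 in Skint5 and 9 and 11 in Csmd3. Of the 1267 genes with at least 100 kb, 35 had none.

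The 10 gene lists followed for tissue identity differed in density, read against the 4.11 per 100 kb and the 39.5% of genes with a peak over all genes. Limb mesenchyme transcription factors held 10.1 per 100 kb, with at least 1 peak in 24 of 34 genes that have later-intron sequence. Zfhx3 led them, followed by Nfia with 31 (42 and 40 in the libraries alone) and Tcf7l2, a Wnt effector, with 30 (45 and 36). Limb patterning signals held 8.84 per 100 kb, in 30 of 36 genes, with 17 in each of the hedgehog effectors Gli2 and Gli3 and 10 in Lef1. Cartilage and bone genes held 7.97 per 100 kb, in 16 of 19 genes, led by Sox6 with 37, Sox5 with 23 and Trps1 with 16. The peaks of Trps1, a growth plate factor, were strong, with a median percentile of 77.2.

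Lists of the other cell types of the limb bud lay lower in density. Their share of genes with a peak ran from 47.4% in the blood list to 70.6% in the muscle list. Limb mesenchyme transcription factors also had 70.6%. Median later-intron length was 16.95 kb in the muscle list, 7.70 kb in the ectoderm list, 30.4 kb in the endothelial list and 15.2 kb in the blood list. In the mesenchyme, patterning and cartilage lists it was 14.9, 33.3 and 21.4 kb, against 11.3 kb over all genes. The part of length in the shares of genes with a peak was not tested. Muscle lineage genes held 6.27 per 100 kb in 12 of 17 genes, with 9 peaks each in Eya4 and Pax7 and 8 in Eya1. Surface ectoderm and apical ridge genes held 6.01 in 9 of 17, with 6 each in Grhl2 and Trp63 and 3 in Cdh1. Endothelial genes held 5.21 in 12 of 18, with 18 in Nrp1 and 6 each in Erg and Pecam1. Blood cell genes held 4.13 in 9 of 19, led by Runx1 with 12, which is also in the cartilage list, then Ptprc with 6 and Bcl11a with 5. Single genes weighed on the last 2 of these lists. Without Nrp1 the endothelial list held 3.73 per 100 kb, and without Runx1 the blood list held 3.51, both below the 4.11 over all genes. The muscle list without Eya4 held 6.75 and the ectoderm list without Grhl2 held 5.68. The 3 limb lists without their leading gene held 11.04, 8.67 and 7.90 in the order above.

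Neural and adhesion lists were long-gene lists. Neural genes held 2.39 peaks per 100 kb, the lowest of the 10 lists, although 12 of 14 had at least 1, with 52 in Nrxn3, 43 in Dlg2 and 30 in Rbfox1. Their median later-intron length was 215 kb, against 11.3 kb over all genes. Cell adhesion and axon guidance genes held 5.96 per 100 kb, in 27 of 27 genes, with 58 in Tenm4, 45 in Slit3 and 42 in Cdh4, a cadherin. Housekeeping genes held peaks in 2 of 15, namely 2 each in Sdha and Ywhaz, over 86.2 kb in all, and Actb had none. The density of the housekeeping list, 4.64 per 100 kb, rests on 4 peaks and was 2.97 without Sdha. The order of the 10 lists is a description, since the lists differ in length, number of genes and intergenic surroundings.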

How the data were processed

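The labels record DNase-seq of limb from mouse embryos at 11.5 days, with 2 biological replicates. The authors deposited, per the file headers and labels, peaks called in each library on mm10, with a signal value per peak that is a whole number from 2 to 150. They also deposited hotspots with a −log10 q value, whose highest value in the files is 100. The sources used here name no aligner, caller or scaling of the signal.

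Peaks of both libraries that overlapped by at least 1 bp were merged into shared peaks. Annotation was GENCODE M21, with 21938 protein-coding genes and 54361 starts, and the longest transcript was the one with the longest summed exons. Density used the sequence of each class over 1 kb from a start, without unknown bases. Soft-masked repeats were kept in it unless stated, whether or not peaks could be called there. Words were counted in the central 150 bp and in windows 500 bp to either side. Shares have Wilson 95% intervals and ratios have log intervals. No test between conditions was possible with 1 group. Class assignment, overlap, nearest starts and word counts were tested on simulated regions and recovered as planted. Python 3.11.15, NumPy 2.4.6 and Matplotlib 3.10.9 were used.

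Named genes were the 10 hosts with the most peaks, the 10 densest with at least 10, the top 3 of each of 10 lists, the 5 richest introns, the 5 strongest peaks and all peaks of Lmbr1. Genes named as nearest starts, the nearly empty long genes and the neighbouring genes were chosen after their values were seen. The class, the gene lists and the words were chosen with earlier results of these data known. Alternatives were each library alone, a stricter overlap, a higher signal, a 2 kb window, another transcript choice, protein-coding exons only, masked sequence left out, other flanks and hotspots. The splits by distance to a start and the lists without their leading gene were added after seeing the data. Sex chromosomes were left out by the rule of the class. No sequence was shown from chromosome 18.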

Additional observations from a re-analysis of the deposited data

How the results depend on the processing

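The number of later-intron peaks stayed within 1.5 times of 23862 under all planned settings except the restriction to peaks above the median signal. It came near that limit with 1 library alone, at 33569 without replicate 1 and 35146 without replicate 2. No planned setting turned a direction. Leaving out either replicate gave shares of distal peaks of 26.1 to 26.5%, later-to-first density ratios of 0.783 to 0.785, later-to-intergenic ratios of 1.19 to 1.22, median percentiles of 43.3 to 45.1, shares nearest to another gene of 23.5 to 23.6%, CTCF ratios to flanks of 10.9 to 11.9 and a median GC of 48.7% in both. With peaks above the median signal only, the number was 11990 by construction, the share 26.3%, the density ratio to first introns 0.831, the percentile 39.3, the share nearest to another gene 24.5%, the CTCF ratio to flanks 18.4 and the GC 50.7%. A 2 kb window gave 27.7%, 0.945, 24.4% nearest to another gene and a CTCF ratio to first-intron peaks of 1.56. The longest transcript by span gave 28.6%, 0.844, 23.5% and 1.54 for the same values. Protein-coding exons only gave a share of 28% and a ratio of 0.818. Hotspots gave 27.6%, 0.896 and, against intergenic sequence, 1.26. Overlap of at least 50% of each peak gave 0.849, 24% nearest to another gene and a CTCF ratio to flanks of 15.9. Without soft-masked sequence the ratio to intergenic sequence was 1.06 and the percentile 43.3. In the alternatives chosen after seeing the data, sequence at least 5 kb from a start gave 0.988 against first introns and 1.26 against intergenic sequence. Pooled within 50 kb of a start, the intergenic ratio turned to 0.918, or 0.785 without masked sequence. Pooled beyond 50 kb, it was 1.46, or 1.26 without masked sequence. These pooled values are not matched for distance. From 50 to 100 kb and from 100 to 500 kb, the ratios without masked sequence were 1.02 and 1.07. The cause of the turn was not tested. No paired analysis was possible because the 2 libraries form a single group. Read depth is unknown, so how many weak peaks it leaves uncalled is not known.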
